A study of Rattus norvegicus with 12 samples.

Results

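The 10 genes described here, Pf4, Ppbp, Selp, F13a1, Itga2b, Itgb3, Gp9, Gp1bb, Gp6 and P2rx1, are a panel of platelet and megakaryocyte genes. They were chosen as a list and located on the array by gene name. Of the 10, 8 had a probe under their own name, 1 probe each, which makes 8 of the 35287 gene names and 8 of the 41012 non-control probes on the array. Itga2b and Gp6 had a probe listed under a transcript or accession identifier instead, and these 2 probes were reached through the gene ID in the description. Their values are given in addition and are not counted among the 8.

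Platelets are cell fragments without a nucleus that megakaryocytes shed into the blood. They carry RNA and granules inherited from the megakaryocyte. They stick to a damaged vessel through receptors for von Willebrand factor and collagen, bind fibrinogen through an integrin, and release the contents of their granules. Whole blood contains platelets together with red and white cells, and the ventricle contains whatever blood remains in its vessels.

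The groups compared were male Sprague-Dawley rats given amiodarone, an antiarrhythmic drug, at an oral dose of 300 mg/kg/day during 10 days, and rats given only the vehicle, methylcellulose at 1%. The rats were 10 weeks old at the start, and a second label gives 11 weeks. From each treatment, 3 pools of left ventricle RNA and 3 pools of whole blood RNA were measured, each on 1 single-colour array. How many animals formed a pool, and whether heart and blood pools of the same number came from the same rats, is not stated, so p-values measure only the spread between these pools. Heart and blood RNA were extracted with different kits, and no slide held both tissues.

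Levels are Agilent processed signals, and scaled levels are log2 of that signal minus log2 of the 75th percentile of its array. Of 43379 spots, 21233 to 25032 were well above background on the heart arrays. In blood this number was 20625 to 21245 in amiodarone pools and 14459 to 15548 in vehicle pools. The 75th percentile of signal in blood was 73.8 ± 15.6 in amiodarone pools and 24.0 ± 2.80 in vehicle pools (SD, n = 3 each), so the blood arrays differed in overall brightness with the treatment. Whether more platelets or more RNA per platelet lay behind a higher level cannot be told apart in such bulk samples. The 12 cardiomyocyte markers held 3.05% to 3.55% of the summed signal on heart arrays and at most 0.000558% on blood arrays.

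In rats given the vehicle, most of the panel had higher scaled levels in blood than in heart. Selp and Gp6 were not well above background in either tissue. The 3 named members measured in both tissues, Gp9, Pf4 and Gp1bb, were higher in vehicle blood than in vehicle heart (limma, adjusted p below the threshold of 0.05). Of all 23504 probes tested, 80.3% were called in that comparison and 37.7% were called higher in blood. The groups did not overlap for these 3 members, nor, with blood higher, for 38.3% of all probes. The 4 other named members that were tested passed the filter on dim probes only through blood, so their direction was set by the filter and they are described without a test. The largest measured difference was that of Gp9, which had scaled levels of 6.54 ± 0.47 in vehicle blood and -2.05 ± 0.09 in vehicle heart (SD, n = 3 each), a log2 difference of 8.60. Pf4 followed with a log2 difference of 7.35 and Gp1bb with 6.79, and Itga2b, located through its gene ID, had 6.93. After scaling, Ppbp was at least 53.5-fold, P2rx1 at least 33.6-fold and Itgb3 at least 10.3-fold higher in vehicle blood. These are lower bounds on the scaled levels, because the 3 probes were not well above background on any vehicle heart array. The 75th percentile averaged 142.9 on vehicle heart arrays and 24.0 on vehicle blood arrays, so scaling raised blood relative to heart. Before scaling, mean log2 signals in vehicle blood and vehicle heart were 6.35 and 1.49 for Ppbp and 5.69 and 2.44 for P2rx1. For Itgb3 they were 3.97 and 1.96. F13a1 differed by 3.33 on the log2 scale after scaling, with 1 of 3 vehicle heart arrays well above background. Before scaling its signals overlapped, at 13.8, 11.5 and 20.1 in vehicle blood and 2.99, 23.4 and 9.23 in vehicle heart. Gp6 was not well above background in vehicle blood or in vehicle heart, so no fold is given. Tissue cannot be told apart from slide and extraction kit in this comparison.

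In blood, 6 of the 7 named members that could be tested were higher in rats given amiodarone than in rats given the vehicle, and the seventh, Pf4, did not pass the test. The rises ranged from 0.86 to 1.62 on the log2 scale (limma with Benjamini-Hochberg adjustment over 18121 probes, n = 3 pools each). These blood arrays changed broadly: 66.0% of the probes tested were called, 40.6% were called higher, and the median of all tested probes was 0.47. A count of 6 of 7 called higher therefore has to be read against a background in which calls were common. The median of the 7 members was 1.08. The scaled levels of the groups did not overlap, with amiodarone higher, for 6 of the 7 and for 45.5% of all probes.

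**Figure D1:**
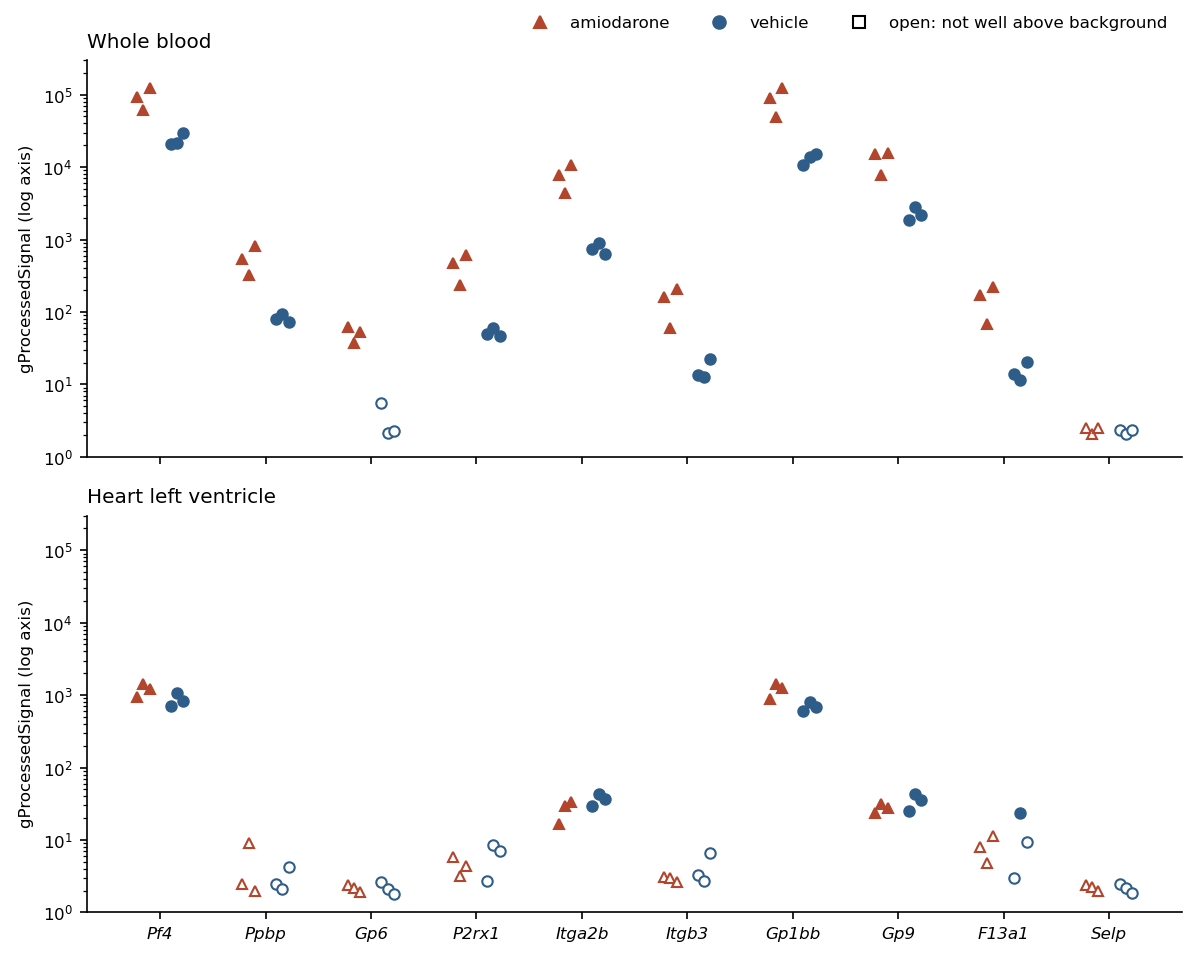
Processed signal of the 10 genes on every array (log axis), with whole blood above and heart left ventricle below. Triangles are amiodarone pools, circles are vehicle pools, and open symbols were not well above background. Before scaling, the 3 amiodarone blood pools lie above the 3 vehicle blood pools for every gene but Selp. The amiodarone blood arrays were brighter in general, and without scaling 76.6% of all blood probes tested were called higher.

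The chemokines of the alpha granule come first. Pf4 encodes platelet factor 4, a heparin-binding chemokine, and Ppbp encodes pro-platelet basic protein, the precursor of a neutrophil-attracting chemokine. Both genes are on chromosome 14, and their probes map to the reverse strand at chr14:18812555-18812614 and chr14:18816439-18816498 in the rat build rn4. The probes are shown because the genes are related while their signals differed widely. Capitals mark the longest run of bases that the 2 probes have in common, 9 of 60.
Pf4: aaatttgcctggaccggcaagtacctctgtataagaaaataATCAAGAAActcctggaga
Ppbp: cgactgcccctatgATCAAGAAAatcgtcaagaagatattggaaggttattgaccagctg

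Pf4 had processed signals of 91755, 62104 and 121613 in amiodarone blood, against 20913, 21463 and 29571 in vehicle blood. Every amiodarone pool was brighter than every vehicle pool. After scaling, the levels were 10.03, 10.09 and 10.62 in amiodarone blood and 9.64, 10.01 and 10.21 in vehicle blood, and the groups overlapped. The scaled log2 difference was 0.30 with a 95% interval of -0.27 to 0.87 (limma, adjusted p = 0.296).

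Ppbp was far dimmer, with signals of 539, 322 and 809.8 in amiodarone blood and 80.2, 92.4 and 72.5 in vehicle blood. It kept its separation after scaling and rose by 1.08 on the log2 scale (SE 0.30, limma adjusted p = 0.0156), which is 2.11-fold. In the authors' deposited value table its difference was 0.77 and did not pass the test (limma, adjusted p = 0.0529).

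Selp encodes P-selectin, the adhesion receptor that granules bring to the surface of activated platelets and of endothelium. Its signals were 2.48, 2.04 and 2.49 in amiodarone blood and 2.37, 2.08 and 2.31 in vehicle blood. It was not well above background on any of the 12 arrays and was not tested. F13a1 encodes the A subunit of coagulation factor XIII, the transglutaminase that cross-links fibrin, which monocytes and macrophages make too. Its signals were 170.2, 69.2 and 221 in amiodarone blood, against 13.8, 11.5 and 20.1 in vehicle blood. With a scaled rise of 1.62 (SE 0.34, limma adjusted p = 0.00557) it had the highest estimate among the 7 named members tested. Under quantile normalization Gp1bb was higher than F13a1 (1.96 against 1.61), as it was in the authors' deposited value table (1.67 against 1.33) and after normexp (1.04 against 0.49).

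The integrin alphaIIb beta3, the platelet fibrinogen receptor, is built from the products of Itga2b and Itgb3. Megakaryocytes and platelets are the main cells that make alphaIIb, whereas beta3 also occurs in endothelium and macrophages. The Itga2b probe, on chromosome 10, is shown because the file does not give it the gene's symbol and because its rise after 75th percentile scaling was estimated above that of any named member; it maps to chr10:91560991-91561050 in rn4, on the reverse strand.
Itga2b: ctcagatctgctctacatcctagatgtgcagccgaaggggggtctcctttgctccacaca

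Itga2b had signals of 7843, 4359 and 10795 in amiodarone blood and 734, 895 and 626 in vehicle blood. The scaled levels were 6.49, 6.26 and 7.13 in amiodarone blood and 4.81, 5.42 and 4.65 in vehicle blood, with no overlap. The rise was 1.67 on the log2 scale, or 3.18-fold (SE 0.30, limma adjusted p = 0.00338). After normexp the difference for Itga2b was 1.52 and did not pass the test (limma, adjusted p = 0.105). Its partner Itgb3 was much dimmer, at 161, 60.5 and 208 in amiodarone blood and 13.6, 12.6 and 22.5 in vehicle blood, and rose by 1.41 (SE 0.37, limma adjusted p = 0.0133).

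Gp9 and Gp1bb encode glycoprotein IX and glycoprotein Ib beta, subunits of the receptor for von Willebrand factor. The Gp9 probe is shown as the one with the largest difference between vehicle blood and vehicle heart; it maps to chr4:121967070-121967129 in rn4, on the forward strand.
Gp9: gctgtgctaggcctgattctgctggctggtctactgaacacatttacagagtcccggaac

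Gp9 had signals of 15029.7, 7846 and 15814 in amiodarone blood, against 1835, 2766 and 2183 in vehicle blood. The scaled levels nearly touched: amiodarone pool 2 was at 7.11 and vehicle pool 2 at 7.05. The rise was 0.86 (SE 0.28, limma adjusted p = 0.0293), and the call was lost on dropping 1 pool in 4 of 6 cases, vehicle pool 1 or 3 or amiodarone pool 1 or 3, with adjusted p up to 0.101. Gp1bb was as bright as Pf4 in amiodarone blood, at 89646, 48555 and 122549, against 10543, 13679 and 15294 in vehicle blood. It rose by 1.04 (SE 0.30, limma adjusted p = 0.0187). Without amiodarone pool 3 or without vehicle pool 1 its adjusted p was 0.0614 or 0.0519.

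Gp6 encodes glycoprotein VI, the collagen receptor that signals through the Fc receptor gamma chain. Its signals were 61.7, 37.7 and 52.5 in amiodarone blood and 5.45, 2.11 and 2.30 in vehicle blood, where no array was well above background. The level was at least 1.83-fold higher in amiodarone blood. The gene passed the filter only through the amiodarone arrays, so this is a description with no test. P2rx1 encodes the ATP-gated cation channel P2X1 of platelets, which neutrophils and smooth muscle also make. It had signals of 469, 239 and 602 in amiodarone blood and 49.8, 59.4 and 46.8 in vehicle blood. Its rise of 1.37, or 2.59-fold, passed the test (SE 0.29, limma adjusted p = 0.00566).

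The size of each change among all blood probes does not depend on which constant scales an array. F13a1 lay at the 94.7th percentile of the 18121 changes, Itgb3 at the 91.4th and P2rx1 at the 90.6th. Ppbp, Gp1bb and Gp9 lay at the 80.4th, 78.7th and 70.3th, within the upper part of the distribution but not at its end. Pf4, at the 44.0th percentile, lay below the middle. The added genes Itga2b and Gp6 lay at the 95.3th and 99.3th. Under other normalizations these ranks moved. With quantile normalization, in the authors' deposited value table and after normexp, Pf4 lay at the 84.5th, 86.0th and 76.4th percentile. In the same order Gp1bb lay at the 95.3th, 97.0th and 97.9th, and F13a1, which moved down, at the 90.7th, 92.7th and 88.7th.

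**Figure D2:**
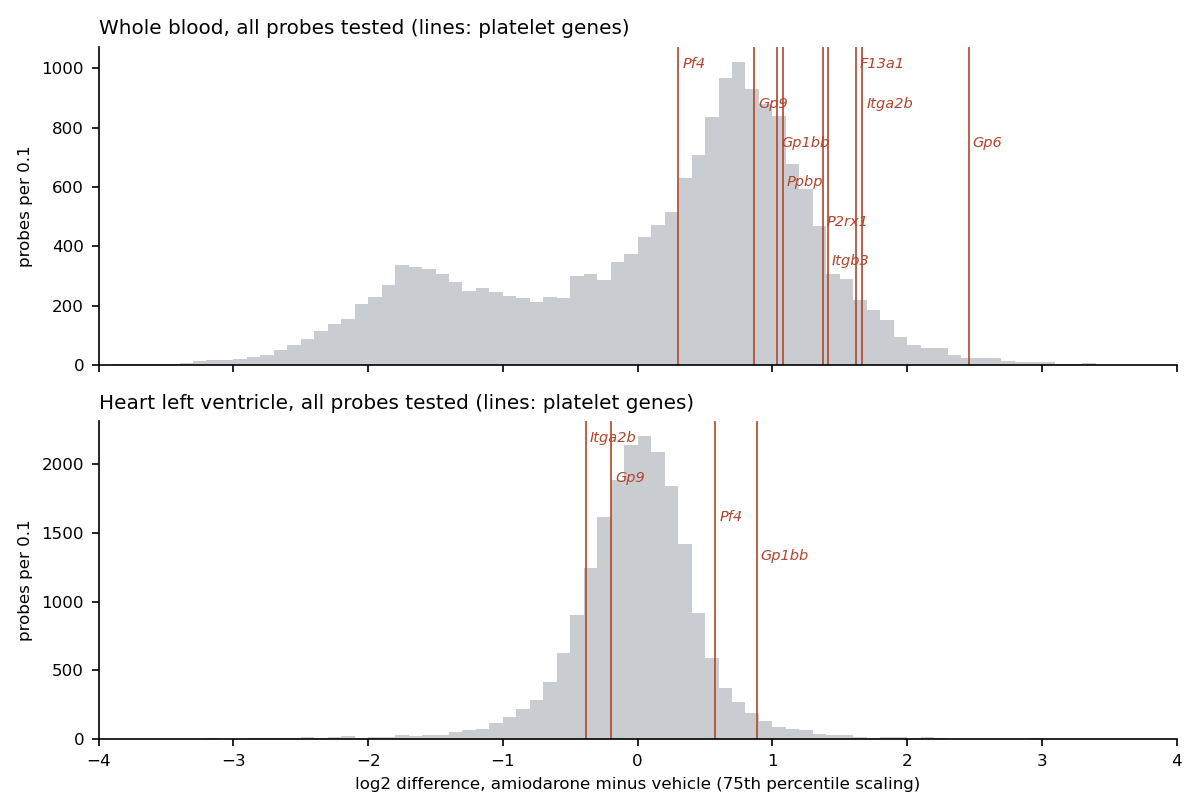
Histograms of the log2 difference between amiodarone and vehicle pools over all probes tested in whole blood (above) and in the heart (below), after 75th percentile scaling. Vertical lines mark the platelet genes. In blood the distribution is wide, and all members tested but Pf4 lie to the right of the overall median of 0.47.

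The scaling of the blood arrays decided the level of every change but not its sign. Without scaling, all 7 named members were called higher, from 1.90 for Pf4 to 3.22 for F13a1, in a comparison where 76.6% of all probes were called higher and the median was 2.07. With spike-in scaling all 7 were also called higher, against 67.7% of all probes. Quantile normalization gave 7 of 7, against 40.9% of all probes, with Pf4 at 1.30. A limma fit of the authors' deposited value table gave 6 of 7, against 26.3% of all probes, with Pf4 at 1.02. Pf4 was also called higher when arrays were scaled by their summed signal (1.06). After normexp background correction the differences were again positive, from 0.29 for Pf4 to 1.04 for Gp1bb. None of the 7 then passed the test (limma, adjusted p from 0.131 to 0.711), and only 1.55% of all probes were called higher.

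**Figure D3:**
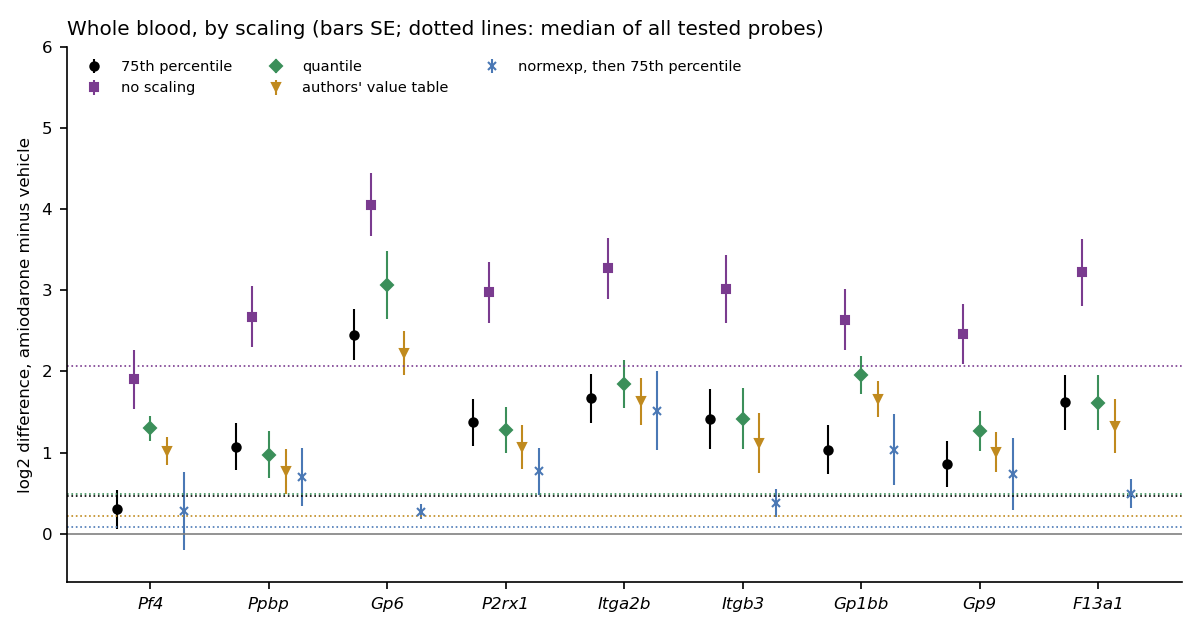
Log2 difference between amiodarone and vehicle blood pools for each platelet gene under 5 settings, with SE bars. Dotted lines give the median of all tested probes in the same setting. Pf4 sits below the overall median with 75th percentile scaling and without scaling, and above it with quantile normalization and in the authors' value table.

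A comparison within arrays needs no scaling constant, though it does depend on a normalization that bends the scale. On processed signals, every other member tested was higher relative to Pf4 on the same array in amiodarone than in vehicle blood. Among the named members this ranged from 0.56 for Gp9 to 1.32 for F13a1 on the log2 scale. Pf4 had the smallest change of the members tested, so the sign of these values was set by that choice. Of all blood probes tested, 56.0% had a larger change than Pf4. For Gp1bb the level relative to Pf4 was -0.03, -0.36 and 0.01 in amiodarone blood, against -0.99, -0.65 and -0.95 in vehicle blood. The groups did not overlap for any member except Gp9. The share of all probes without overlap relative to Pf4 was not computed, so this is a description. With 3 pools against 3, the two-sided exact permutation p of 0.1 is the smallest possible, and 8 genes were compared, Gp6 among them, which was not well above background in vehicle blood. Under quantile normalization the rise of Pf4 (1.30) exceeded those of Ppbp (0.98), P2rx1 (1.28) and Gp9 (1.26). In the authors' deposited value table the difference for Pf4 (1.02) exceeded those for Ppbp (0.77) and, by little, Gp9 (1.01). After normexp the order against Pf4 (0.29) turned only for Gp6 (0.27). A value relative to Pf4 shows unequal change, and it does not show which of the genes moved.

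Put together, the 8 probes found by name held 0.787%, 0.741% and 1.02% of the summed signal in the 3 amiodarone blood pools, against 0.298%, 0.370% and 0.306% in the vehicle blood pools. Most of it came from Pf4 and Gp1bb. Among the 7 members tested, amiodarone pool 2 had the lowest scaled level of its group for 6, and vehicle pool 1 the lowest of its group for 5. The slides divided the pools the same way in both groups, with pools 1 and 2 on the first slide and pool 3 on the second. With slide as a block, 6 of 7 were again called. Within the first slide alone, 3 of 7 were called, Itgb3, F13a1 and P2rx1, and the differences of the other 4 were 0.24 for Pf4, 0.68 for Ppbp, 0.87 for Gp1bb and 0.68 for Gp9. On the second slide, with 1 pool of each group, they ranged from 0.42 for Pf4 to 2.06 for P2rx1.

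Markers of other blood cells moved with the treatment as well. The 12 neutrophil markers held 0.0916% to 0.166% of the summed signal in amiodarone blood and 0.0208% to 0.0244% in vehicle blood. The 10 T cell markers held 0.116% to 0.133% in amiodarone blood and 0.0508% to 0.0597% in vehicle blood. The 13 red cell markers on the array held 1.01% to 1.62% in amiodarone blood and 2.79% to 3.22% in vehicle blood. The 12 macrophage markers held 0.0112% to 0.0141% in amiodarone blood and 0.00555% to 0.00808% in vehicle blood. The 14 endothelial markers held 0.0113% to 0.0176% in amiodarone blood and 0.00323% to 0.00500% in vehicle blood, and of the 4 tested 3 were called higher and 1 lower. Of those 4, Esam, Vwf and Pecam1 also stand in the platelet lists, and 8 of the 14 were not well above background on any blood array. The part of these shifts in the members' values was not tested.

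In the heart, 3 of the named members were bright enough to test, and 1 of them, Gp1bb, was higher after amiodarone. Of the 20506 heart probes tested, 7.41% were called and 3.65% were called higher. Gp1bb had signals of 884, 1435 and 1244 in amiodarone heart, against 600.4, 799.8 and 687 in vehicle heart. The scaled levels of 2.99, 3.14 and 3.41 in amiodarone heart lay above all of 2.41, 2.19 and 2.29 in vehicle heart. The difference of 0.88 (SE 0.16, limma adjusted p = 0.0189) lost its call without any 1 of the 3 vehicle pools and without amiodarone pool 2 (adjusted p from 0.0661 to 0.0844). The estimate was 0.75 without scaling (limma, adjusted p = 0.373) and 0.88 without the filter on dim probes (limma, adjusted p = 0.129), and neither was called. On the first slide alone it was 0.77 (limma, adjusted p = 0.175). On the second slide, with 1 pool of each group, it was 1.12.

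The Gp1bb probe may not read Gp1bb alone. It maps to chr11:84370858-84370917 in rn4 on the forward strand, and the accessions listed for it include a transcript of the neighbouring gene Septin5, which encodes a septin that platelets also contain. In the RefSeq annotation of GRCr8, Gp1bb (chr11:95882561-95883738) lies inside the span of Septin5 (chr11:95877946-95883738) and shares its end. A separate Septin5 probe, at chr11:84369176-84369234 in rn4, had signals of 7.03, 16.1 and 18.8 in amiodarone heart and 17.9, 30.4 and 18.2 in vehicle heart. Its log2 difference was -0.61 and did not pass the test (limma, adjusted p = 0.294), so the Septin5 probe was not higher where the Gp1bb probe was. In blood the Septin5 probe rose by 1.56 (limma, adjusted p = 0.00338). How far Septin5 transcripts add to the Gp1bb signal was not tested.

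Pf4 had signals of 939.6, 1402 and 1197 in amiodarone heart and 701, 1073 and 832 in vehicle heart. After scaling, all 3 amiodarone pools (3.08, 3.11 and 3.35) lay above the vehicle pools (2.63, 2.62 and 2.57), as did 17.9% of all heart probes. The difference of 0.57 (SE 0.14) missed the threshold (limma, adjusted p = 0.0513). Gp9 and Itga2b, the other platelet receptor genes measured there, showed no such separation. Gp9 had signals of 23.2, 31.0 and 27.3 in amiodarone heart and 25.4, 42.9 and 35.7 in vehicle heart, a difference of -0.20 with an interval of -0.53 to 0.14 (limma, adjusted p = 0.444). Itga2b had 16.5, 29.2 and 33.0 in amiodarone heart and 29.5, 43.3 and 36.3 in vehicle heart, a difference of -0.38 with an interval of -0.93 to 0.16 (limma, adjusted p = 0.362).

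Ppbp, P2rx1, Itgb3, Gp6 and Selp were not well above background on any heart array, and F13a1 was on 1 vehicle array only. The 13 red cell markers held 0.00904% to 0.0108% of the summed signal in amiodarone heart and 0.0408% to 0.0488% in vehicle heart, and 7 of the 12 tested were called lower. The 12 macrophage markers held 0.0226% to 0.0286% in amiodarone heart and 0.0127% to 0.0216% in vehicle heart. The part of either in the heart levels of Pf4 and Gp1bb was not tested.

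**Figure D4:**
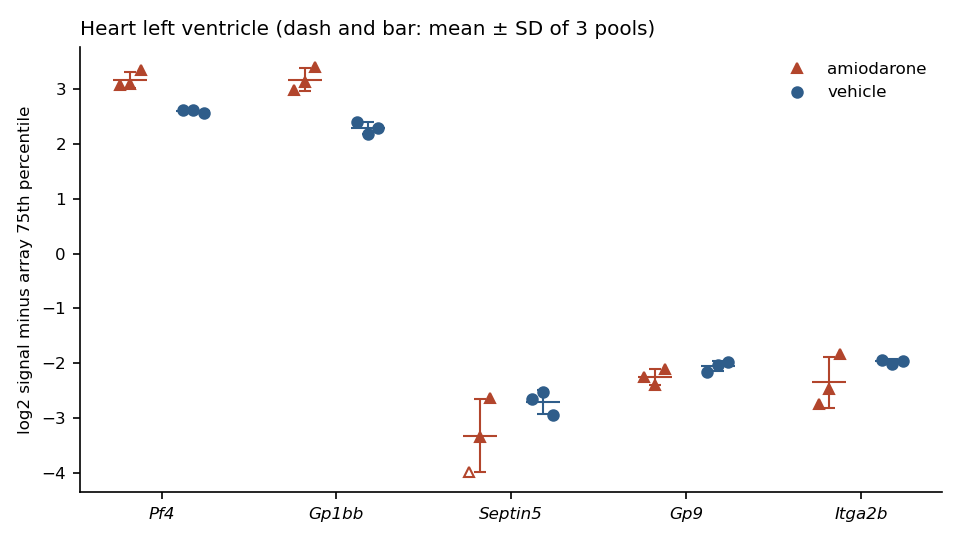
Scaled log2 levels in the heart for the 4 platelet genes measured there and for Septin5, which overlaps Gp1bb. Triangles are amiodarone pools, circles are vehicle pools, dashes and bars are mean ± SD of 3 pools, and the open symbol was not well above background. Pf4 and Gp1bb separate the groups, while Gp9, Itga2b and Septin5 do not.

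The drug effect in blood minus the drug effect in heart was tested in 1 fit of the 12 arrays. Of 23504 probes, 45.0% were called and 21.4% were called with a larger value in blood. Of the 3 named members measured on every array, Gp9, Pf4 and Gp1bb, only Gp9 was called, with a difference of 1.06 (limma, adjusted p = 0.0239). That call was lost without heart vehicle pool 3, heart amiodarone pool 2 or blood amiodarone pool 3 (adjusted p from 0.0510 to 0.0586). P2rx1 and Itgb3 had differences of 1.57 and 1.70, but neither was well above background in the heart, so no test is read for them. Itga2b, measured on all 12 arrays, differed by 2.05 (limma, adjusted p = 0.00319). Pf4 had a difference of -0.27 with an interval of -0.91 to 0.36, and Gp1bb 0.15 with an interval of -0.64 to 0.95. The sign for Pf4 was positive with no scaling, with quantile normalization and with spike-in scaling.

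The pattern of Pf4 over the 12 arrays was also compared with that of other genes. Likeness was the root mean square difference between scaled log2 levels, each probe centred on its own mean, over 13853 probes with a gene symbol. The 6 nearest genes outside the panel were Agrp (0.192), Cd3d (0.312), Sit1 (0.363), Cd3g (0.382), Lat (0.395) and Plac8 (0.409). Agrp passed the filter on dim probes only through blood, so its match on the heart arrays may rest on dim values. Cd3d and Cd3g encode chains of the T cell receptor complex. Among the members, Gp1bb was nearest at 0.352, between Cd3d and Sit1, and Ppbp followed at 0.652. The 12 arrays share the large step between tissues, which dominates this measure.

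Around the members stood 5 lists of other platelet and megakaryocyte genes, 87 genes in all, 84 of them on the array. In blood, 53 of the 73 tested were called higher and 9 lower, with a median log2 difference of 1.05, in a comparison where 40.6% of all probes were called higher and 25.4% lower. The 53 include Alox12, which passed the filter on dim probes only through the amiodarone arrays. After normexp background correction 2 of the 73 were called higher and 5 lower, against 1.55% and 6.33% of all probes. Without scaling 64 were called higher and 0 lower by limma, against 76.6% and 1.75% of all probes.

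Granule cargo and secretion genes were called higher in blood in 17 of 18 cases, with a median of 1.31. Nbeal2, which is needed to form alpha granules, rose by 1.70, with signals of 431, 286 and 385 in amiodarone blood and 42.6, 34.8 and 33.8 in vehicle blood (limma, adjusted p = 0.00101). Srgn, the granule proteoglycan serglycin, rose by 1.55 and Stx11, a syntaxin of granule release, by 1.79. White cells make both of these too. Vwf rose by 1.48, Thbs1 by 1.67 and Slc18a2, the serotonin carrier of dense granules, had 0.85 and did not pass the test (limma, adjusted p = 0.127).

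Adhesion receptors were called higher in 11 of 16 cases and lower in 2, with a median of 0.98. Esam, a junction adhesion molecule, rose by 1.29 and Itgb1, the beta1 integrin chain, by 1.08. Gp5, which joins the von Willebrand factor receptor, rose by 1.47, while Gp1ba, its ligand-binding subunit, had 0.27 and did not pass the test (limma, adjusted p = 0.535). Pecam1 fell by 1.69 and Cd36 fell by 1.81 after scaling. The signals of Pecam1 were 42.3, 42.9 and 52.7 in amiodarone blood and 54.2, 42.9 and 49.2 in vehicle blood, which overlap.

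Agonist receptors and signalling genes were called higher in 20 of 27 cases and lower in 2, with a median of 1.13. Lcp2, an adaptor below the collagen receptor, rose by 1.33, P2ry12, the ADP receptor, by 0.97 and Fcer1g, the chain that signals for Gp6, by 1.60. After scaling, Ptgir, the prostacyclin receptor that restrains platelets, fell by 2.04, and Adra2a, the alpha2A adrenergic receptor, fell by 1.96. The signals of Ptgir were 144, 137 and 174 in amiodarone blood and 237, 184 and 195 in vehicle blood. Those of Adra2a were 55.5, 52.7 and 54.8 against 85.9, 61.9 and 64.0. Without scaling, 0 genes of this list were called lower. Of the 3 eicosanoid enzymes tested all were called higher, with Ptgs1, cyclooxygenase 1, at 1.65 and Tbxas1, thromboxane synthase, at 1.45. Alox12, platelet lipoxygenase, was well above background on 1 of 3 vehicle arrays and passed the filter only through the amiodarone arrays. Its scaled difference of 2.60 is therefore a description with no test.

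For the transcription factors of the megakaryocyte the direction in blood depended on the scaling. With 75th percentile scaling 5 of 9 were called lower and 2 higher, with a median of -1.06. Without scaling 4 were called higher and 0 lower by limma, with a median of 0.54, and with spike-in scaling 3 higher and 0 lower, with a median of 0.20. The median of all probes was 2.07 without scaling and 1.73 with spike-in scaling, so the list lay below it in each setting. After 75th percentile scaling, Gata1 fell by 2.06, Tal1 fell by 1.78 and Gfi1b fell by 1.65. These 3 also serve red cell precursors. With the same scaling the red cell markers were called lower in 12 of 13 cases, against 25.4% of all probes. Without scaling 5 of the 13 were called lower, against 1.75% of all probes. With spike-in scaling 7 were, against 1.78%. The part of red cells in the values of Gata1, Tal1 and Gfi1b was not tested. Before scaling, the signals of Gfi1b were 6559, 3186 and 4720.1 in amiodarone blood and 4775, 3902 and 5802 in vehicle blood, which overlap, and without scaling 0 genes of the 5 lists were called lower by limma. Runx1 rose by 1.01, and Fli1 had -0.22 and did not pass the test (limma, adjusted p = 0.369).

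In the heart, 2 of the 56 list genes tested were called higher and 5 lower, with a median of -0.09, against 3.65% of all heart probes called higher and 3.76% lower. Pla2g4a, cytosolic phospholipase A2, which frees arachidonate in many cell types, rose by 2.004 on the log2 scale, with signals of 145, 153 and 98.9 in amiodarone heart and 26.1, 46.7 and 36.3 in vehicle heart (limma, adjusted p = 0.00156). That call held whichever of the 6 pools was dropped. Cd36, the fatty acid carrier that cardiomyocytes make as well, rose by 1.26, and the call held in 2 of the 6. Treml1, a granule receptor of platelets, fell by 1.16, with signals of 42.3, 84.4 and 59.4 in amiodarone heart and 104, 195 and 153 in vehicle heart, and the call held in 4 of the 6. Itga6 fell by 1.26, Sparc by 0.88 and Mylk by 0.83, and each kept the call in at most 2 of the 6. Tbxa2r, counted among the 5 called lower, was well above background on 1 of 3 amiodarone heart arrays. It passed the filter only through the vehicle arrays, so its difference of -1.76 is a description with no test. None of the 7 megakaryocyte regulators was called by limma, the nearest being Nfe2 at -0.59 (limma, adjusted p = 0.0624).

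**Figure D5:**
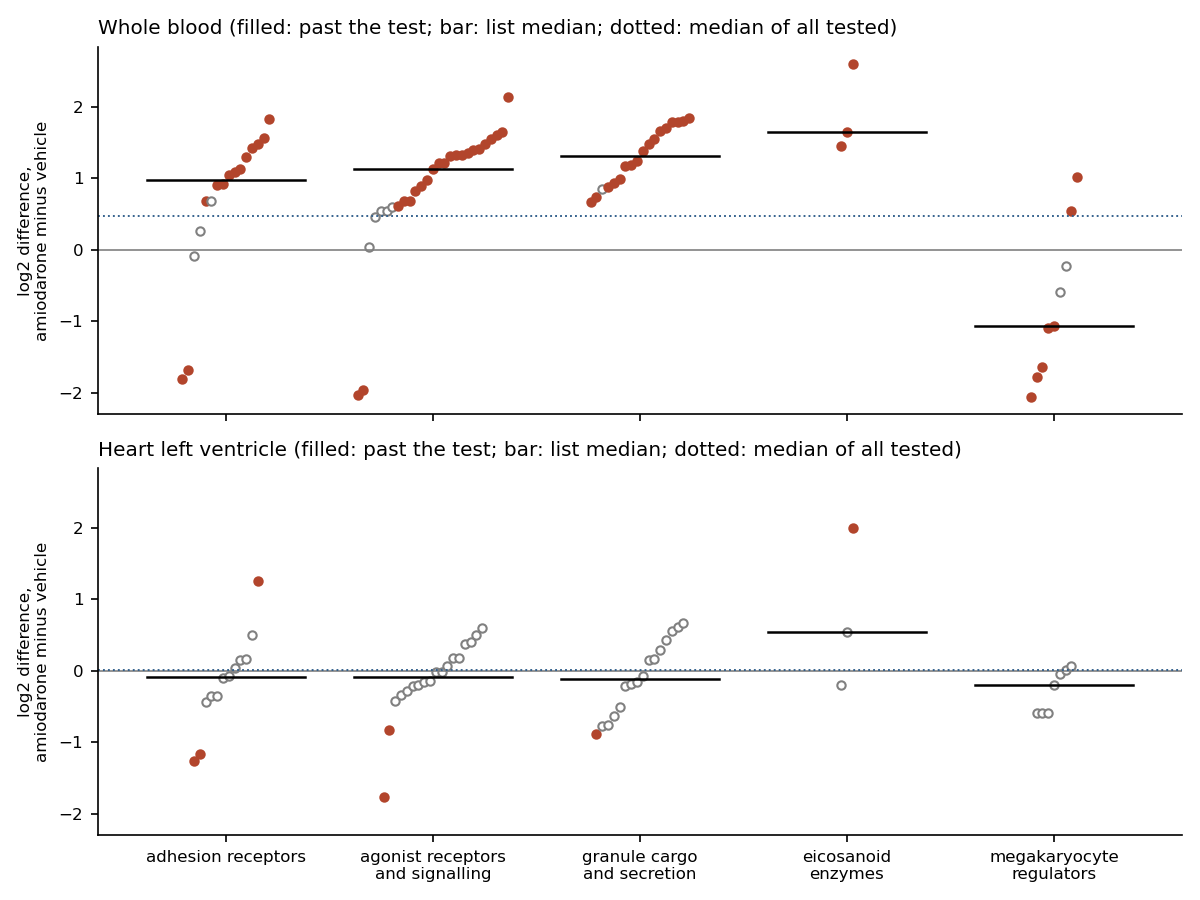
Log2 difference between amiodarone and vehicle pools for each tested gene of the 5 platelet and megakaryocyte lists, in whole blood (above) and heart (below). Filled points passed the test, bars are list medians and the dotted line is the median of all probes tested. In blood 4 lists have medians above the overall 0.47, and the megakaryocyte regulators have a median of -1.06, which was 0.54 without scaling and 0.20 with spike-in scaling.

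The promoters of the members were read because 6 of 7 tested genes moved in the same direction in blood and because factors of the GATA and ETS families are known to drive megakaryocyte genes. RefSeq promoters of GRCr8 were at hand for 7 of the 10 genes. The window searched was the 250 bases before the gene's start. GATA letters were NGATAN with A or T first and A or G last. ETS letters were CGGAAG. Both strands were read, and the matches found did not overlap. GATA letters stood in 4 of the 7, Itga2b, Gp1bb, Gp6 and P2rx1, against 27% of all 33469 promoters. ETS letters stood in 2 of the 7, Itga2b and Gp1bb, against 13.9% of all promoters, and 2.52% held both. For Itga2b, a GATA match lay 55 bases before the start, and ETS matches lay 42 and 176 bases before it. The last 150 bases before the start are shown for Itga2b, with both kinds of letters, for P2rx1, with a GATA match, and for Ppbp, with neither. They are chr10:87925834-87925983 on the reverse strand, chr10:58116957-58117106 on the forward strand and chr14:17587300-17587449 on the reverse strand. Capitals mark the matches, which describe letters and not bound sites.
Itga2b: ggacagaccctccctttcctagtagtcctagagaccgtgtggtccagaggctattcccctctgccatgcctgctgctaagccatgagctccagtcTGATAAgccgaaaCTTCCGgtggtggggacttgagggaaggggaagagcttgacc
P2rx1: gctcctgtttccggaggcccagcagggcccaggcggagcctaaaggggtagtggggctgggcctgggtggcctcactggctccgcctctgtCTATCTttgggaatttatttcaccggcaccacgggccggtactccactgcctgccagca
Ppbp: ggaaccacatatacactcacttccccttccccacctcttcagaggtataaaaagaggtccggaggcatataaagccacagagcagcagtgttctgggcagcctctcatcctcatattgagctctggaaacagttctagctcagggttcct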

How the data were processed

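Agilent Feature Extraction 9.5.1.1 gave each spot a processed intensity, per the file headers, with background subtracted and spatial trends removed but no scaling between arrays. The authors' deposited value table holds normalized intensity on a linear scale. Heart and blood were normalized separately there, by a method not given in the sources used here, so it served as an alternative.

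Spots with an outlier flag were dropped, spots of a probe were averaged, and log2 signals were scaled to the 75th percentile of each array. To be tested, a probe had to exceed background clearly on the 3 arrays of some group. Tests were two-sided with limma 3.58.1 in R 4.3.3, Benjamini-Hochberg adjusted over all probes tested, threshold 0.05. Where a group had no array well above background, a fold is a lower bound, taken per array against the larger of 2 signals, the probe's own and the lowest one that still counted as above background. Positions are rn4 from the files. Figures used matplotlib. The limma step was tested on simulated data.

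The members and lists were chosen with earlier results of these data known. Named genes were all members, up to 3 genes with the smallest p per platelet list and tissue (or 1 where none passed), and the 6 genes most like Pf4. Other list genes named in the text were picked after their values were seen: Vwf, Thbs1, Slc18a2, Gp5, Gp1ba, P2ry12, Fcer1g, Runx1, Fli1 and Cd36 in blood. Septin5 was added because its transcript overlaps Gp1bb.

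The main fits did not pair the pools by replicate number. Same-numbered amiodarone and vehicle pools had correlations of -0.17, -0.24 and 0.32 in heart and 0.07, 0.15 and 0.29 in blood. So few values, with a slide shared by pools 1 and 2, cannot decide whether the numbers pair the pools. The alternatives covered background correction, scaling, filter, probe choice, outlier flags, slide, replicate block and leaving out each pool. Scaling by summed signal was added after seeing the data.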

Additional observations from a re-analysis of the deposited data

Results flagged for a closer look

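In all, 5 genes of the panel had a drug effect that differed between tissues by the contrast test in the fit of all 12 arrays, a contrast in which 45.0% of 23504 probes were called. The log2 effect in blood minus that in heart was 2.33 for Gp6, 2.05 for Itga2b, 1.70 for Itgb3, 1.57 for P2rx1 and 1.06 for Gp9. Itga2b and Gp9 were measured in both tissues. Gp6, Itgb3 and P2rx1 were not well above background on any heart array and passed the filter only through blood, so their values are a description. Leaving out 1 pool at a time, Itga2b kept the call in all 12 fits and Gp9 in 9. Over all 24 alternative fits the highest limma adjusted p for Itga2b was 0.0687, above the threshold, so its call did not hold in all of them.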

How the results depend on the processing

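In heart, 1 of 3 named members was called; normexp, array median scaling, the filter on all arrays and the brightest probe per gene name each gave 2, and no scaling, no filter (of 8) and the first slide alone gave 0. In blood, 6 of 7 were called, normexp gave 0 and the first slide alone 3. For the difference between tissues, 3 of 7 were called (only Gp9 of them measured in heart), against 0 with normexp, 7 with no scaling, 6 with spike-in scaling and 1 with the filter on all arrays (3 tested). For vehicle blood against vehicle heart, 7 of 7 were called, 4 of which passed the filter only through blood, and that filter left 3 to test, all called. Leaving out 1 pool gave 0 to 1 in heart, 4 to 6 in blood, 0 to 3 for the difference and 7 to 7 between tissues. With the replicate number as a block, the pairing fit gave 0 in heart (Gp1bb 0.88, limma adjusted p = 0.0652), 6 in blood, 1 for the difference and 7 between tissues. Signs turned for Gp9 in heart with normexp (0.016), and, in the difference between tissues, for Pf4 with no scaling (1.46), quantile normalization (0.58) and spike-in scaling (0.89) and for Gp1bb without blood vehicle pool 1 (-0.06) or blood amiodarone pool 3 (-0.10), where leaving out each pool gave -0.10 to 0.35. Over all probes, heart calls numbered 1519, against 814 with no scaling, 962 with spike-in scaling, 331 with no filter, 670 with the replicate block and 248 on the first slide. Blood calls numbered 11951, against 1428 with normexp and 28266 with no filter. For the difference they numbered 10578, against 2009 with normexp, 21432 with no filter and 5798 with the filter on all arrays. Between tissues they numbered 18873, against 34517 with no filter and 8461 with the filter on all arrays. The share of blood calls that were higher was 61.5%, against 97.8% with no scaling, 97.4% with spike-in scaling, 48.5% in the authors' value table and 19.7% with normexp; in heart it was 49.2%, against 29.2% with no scaling and 60.3% with spike-in scaling. A slide block could not be fitted between tissues because each slide held 1 tissue. The causes of these changes were not tested. Signal over background limits the heart values of 6 members, and 3 pools a group limit every test.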
